A study of Mus musculus with 6 samples.

Results

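Matrix metalloproteinases (MMPs) are zinc enzymes that cut collagen, elastin and other proteins around cells, and tissue inhibitors of metalloproteinases (TIMPs) bind them and block them. 10 genes of this system were followed in dendritic cells grown from mouse bone marrow, namely the 7 proteases Mmp2, Mmp9, Mmp12, Mmp13, Mmp14, Mmp19 and Mmp25 and the 3 inhibitors Timp1, Timp2 and Timp3. They were taken by symbol from the platform annotation, out of 19938 genes with a probe set that names 1 gene. Each of the 10 had exactly 1 such probe set.

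The study followed dendritic cells after ultraviolet (UV) irradiation of skin. In the UV-donor group, female C57BL/6J mice received 2000000 bone marrow cells from a UV irradiated B6.SJL-Ptprca mouse, a congenic strain marked by the CD45.1 alloantigen. Its shaved back had been exposed to broadband UV at a dose of at most 8 kJ/m2, at an age of 6 to 10 weeks. In the naive-donor group the same number of cells came from a naive mouse of that strain, and strain and sex of the recipients were the same. The same age of 6 to 10 weeks is given for the naive-donor group. Marrow of all recipients was cultured for 5 days with GM-CSF and IL-4 at 10 ng/ml each, CD11c+ cells were enriched to above 95%, and 3 RNA preparations from each group gave 1 array each, 6 in all. How recipients were prepared, how long the transferred marrow stayed in them and what share of the cultured cells it gave are not stated in the sources used here, so host cells may be among those measured. The labels do not tie the preparations to separate recipients, and p-values measure only the spread between preparations, which may be technical.

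The values are log2 signals per probe set, so a difference of 1 is a doubling of signal. Signals of different probe sets depend on their probes and were not ranked against each other. Pearson correlations between arrays over all 35556 probe sets ran from 0.995 to 0.997. The dendritic cell label was set beside 11 markers. Itgax, which encodes CD11c, had 13.71, 13.75 and 13.73 in UV-donor cells, against 13.78, 13.75 and 13.79 in naive-donor cells. The cells were enriched for CD11c, so this signal does not test the label. A filter on dim genes left out genes whose mean was under the 30th percentile and kept 13956 genes. Among those markers Flt3, the receptor of a dendritic cell growth factor, was the 1 below it. All 11 macrophage markers listed below also passed this filter.

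MMPs are made as inactive zymogens, and a cysteine of the propeptide blocks the zinc until the propeptide is cut. The gelatinases Mmp2 and Mmp9 cut denatured collagen and basement membrane collagen, Mmp13 is a collagenase, Mmp12 is the macrophage elastase, Mmp14 and Mmp25 are anchored in the membrane, and Mmp19 is a secreted enzyme with basement membrane substrates. Dendritic cells use gelatinases and Mmp14 when they leave tissue and pass through matrix, and several MMPs also trim chemokines and cell-surface receptors.

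Both gelatinases and the membrane-anchored Mmp25 had higher signals in UV-donor than in naive-donor cells, by 1.26-fold for Mmp9, 1.21-fold for Mmp25 and 1.20-fold for Mmp2. In all 3 the lowest UV-donor array lay above the highest naive-donor array. None of them passed the test over all genes. The other 4 proteases and the 3 inhibitors had overlapping groups. Of the 10 genes, limma called 0 (two-sided test, Benjamini-Hochberg adjusted p under 0.05 over 13956 genes), where 0.172% of all tested genes were called. At an unadjusted p under 0.05 limma gave 3 of the 10 higher and 0 lower, beside 9.6% of all tested genes higher and 5.49% lower. Groups did not overlap in 3 of the 10, all with UV-donor above, beside 12.4% of all tested genes above and 9.37% below. The median log2 difference of the 10 was 0.007, with 5 higher and 5 lower in value, against 0.002 over all tested genes, of which 50.6% were higher in value.

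**Figure D1:**
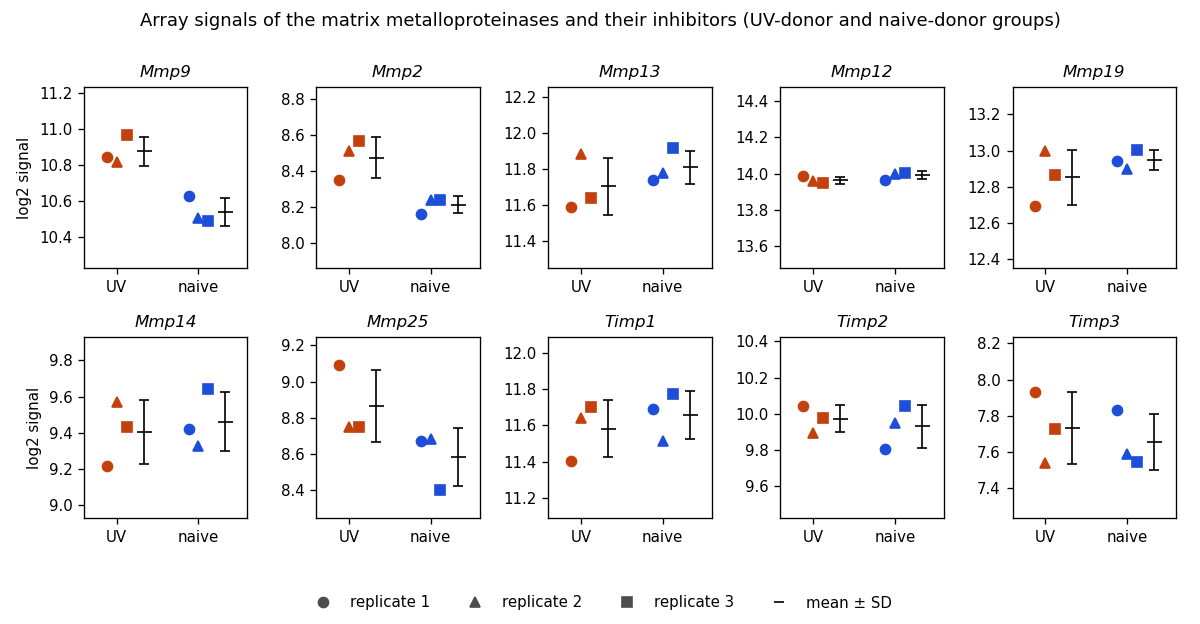
Log2 array signal (y axis, each panel spanning 1 log2 unit) of the 10 genes in the UV-donor group (left, orange) and the naive-donor group (right, blue). Symbols are the 3 replicates and the bar is the mean with its SD. Mmp9, Mmp2 and Mmp25 have no overlap between groups, and the 6 values of Mmp12 lie between 13.95 and 14.01.

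Mmp9, gelatinase B, is secreted by activated myeloid cells and stored in neutrophil granules. Its probe set 10478633 had log2 signals of 10.84, 10.82 and 10.97 in UV-donor cells, against 10.63, 10.51 and 10.49 in naive-donor cells. The closest arrays of the 2 groups were UV-donor replicate 2 and naive-donor replicate 1. The means were 10.88 ± 0.08 in UV-donor cells and 10.54 ± 0.08 in naive-donor cells (SD, n = 3 each). The difference was 0.33 (SE 0.06, 95% interval 0.19 to 0.48, limma unadjusted p = 0.000582, adjusted p = 0.104), and 76 tested genes had a smaller p. The difference is larger than the spread between replicates, and it does not pass the correction over all genes. With single arrays left out, the difference was 0.29 to 0.38.

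Mmp2, gelatinase A, is typically made by stromal cells and is activated at the cell surface by Mmp14 together with Timp2. Its probe set 10573924 had 8.35, 8.51 and 8.56 in UV-donor cells, against 8.16, 8.24 and 8.24 in naive-donor cells. UV-donor replicate 1 was the lowest of its group and stood just above the naive-donor arrays. The difference was 0.26 (SE 0.06, 95% interval 0.11 to 0.41, limma unadjusted p = 0.00341, adjusted p = 0.157). With single arrays left out, it was 0.22 to 0.32 (limma adjusted p 0.106 to 0.427). The largest value, 0.32, came without UV-donor replicate 1 (limma adjusted p = 0.106) and the smallest without UV-donor replicate 3 (limma adjusted p = 0.27).

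Stromal markers were set beside Mmp2, and their part in it was not tested. Of 13 stromal and endothelial markers 5 were dim, among them the fibroblast matrix genes Dcn and Lum and the chemokine Cxcl12. Of the 8 tested, 3 were higher and 5 lower in value, with 0 called by limma. An unadjusted p under 0.05 was given for 2 above and 2 below, beside 9.6% and 5.49% of all tested genes. The summed linear signal of all 13 ran from 4595 to 4890 on UV-donor arrays and from 4269 to 4495 on naive-donor arrays, while the median difference of the 8 was -0.06. Pecam1 and the leptin receptor Lepr held 55.9% of that sum, and the other 11 markers summed to 1921 to 2048 on UV-donor arrays and 2023 to 2058 on naive-donor arrays. The endothelial and leukocyte adhesion molecule Pecam1 differed by 0.23 (limma adjusted p = 0.149) and Lepr by 0.25 (limma adjusted p = 0.288), while the fibroblast collagen Col3a1 differed by -0.19 (limma adjusted p = 0.149).

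**Figure D2:**
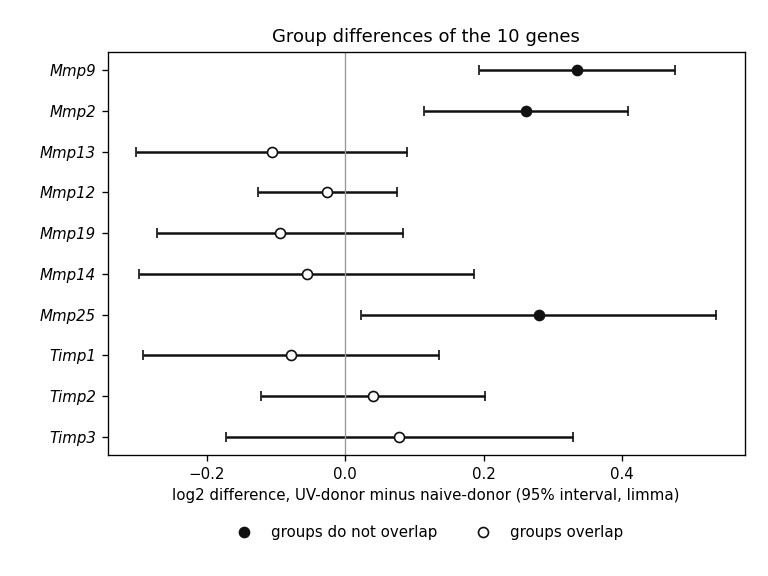
Log2 difference, UV-donor minus naive-donor (x axis), of each of the 10 genes with its 95% interval from limma; filled points mark genes whose groups do not overlap. The intervals of Mmp9 (0.19 to 0.48), Mmp2 (0.11 to 0.41) and Mmp25 (0.02 to 0.54) lie above 0 and the other 7 include it.

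Mmp25, also called leukolysin or MT6-MMP, is held at the membrane by a lipid anchor and is known in humans as a neutrophil enzyme. Its probe set 10448278 had 9.09, 8.75 and 8.75 in UV-donor cells, against 8.67, 8.68 and 8.40 in naive-donor cells. UV-donor replicate 1 was the highest and naive-donor replicate 3 the lowest, and the other 4 arrays lay within 0.08 of each other. The difference was 0.28 (SE 0.11, 95% interval 0.02 to 0.54, limma unadjusted p = 0.0362, adjusted p = 0.295). It was 0.16 without UV-donor replicate 1 (limma adjusted p = 0.493) and 0.19 without naive-donor replicate 3 (limma adjusted p = 0.511).

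Mmp8, the neutrophil collagenase, was not among the 10 genes and belongs to the list of other MMPs. It had 11.45, 11.19 and 11.18 in UV-donor cells, against 10.65, 11.05 and 10.75 in naive-donor cells, without overlap. Its difference of 0.45 (SE 0.11, limma adjusted p = 0.157) exceeded those of Mmp9 and Mmp25 in value; those gaps were not tested.

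Neutrophil markers were set beside these genes. Of 13 markers, Mmp8 among them, 11 were higher in value, 8 of them with an unadjusted limma p under 0.05. Over all tested genes, 9.6% were higher at that threshold. Of the 8 markers, 2 passed over all genes. The called genes were the calcium-binding protein S100a8 (0.77, limma adjusted p = 0.0365) and the granule iron binder Ltf (0.54, limma adjusted p = 0.0199). The chemokine receptor Cxcr2 differed by 0.29 (limma adjusted p = 0.149). The median of the list was 0.29, against 0.002 over all tested genes. Its summed linear signal ran from 15670 to 16320 on UV-donor arrays and from 12130 to 12560 on naive-donor arrays. Without Mmp8 the sums were 12880 to 13990 on UV-donor arrays and 10360 to 10950 on naive-donor arrays, with 10 of 12 higher in value. The primary granule genes Mpo (0.04) and Elane (-0.03) and the granule peptide Camp (-0.02) had overlapping groups, and no marker of the list was dim. Their part in the values of Mmp9 and Mmp25 was not tested. In RNA of whole preparations, more cells of a type and more RNA per cell cannot be told apart.

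**Figure D3:**
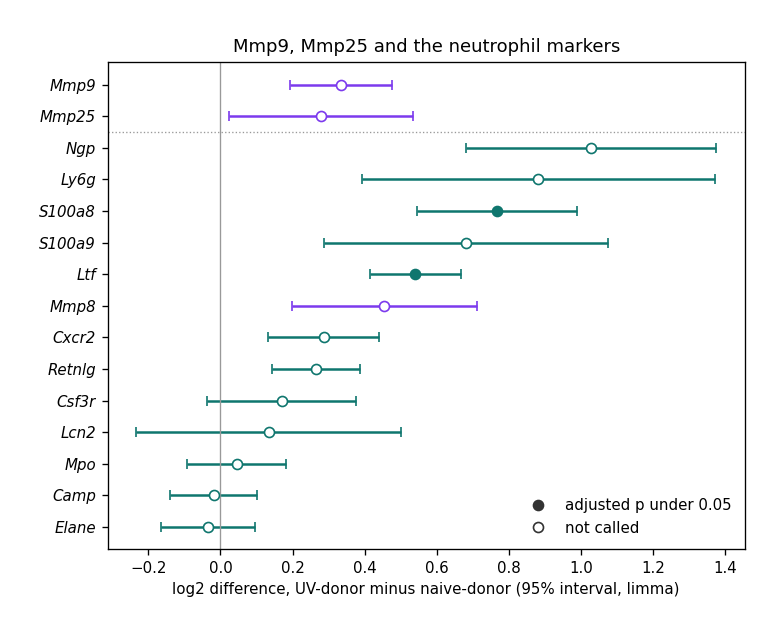
Log2 difference, UV-donor minus naive-donor (x axis, 95% interval from limma), of Mmp9 and Mmp25 (top) and the 13 neutrophil markers, with MMP genes in purple and filled points for an adjusted p under 0.05. S100a8 and Ltf are filled, and 11 of the 13 markers lie above 0.

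Mmp13 and Mmp12 lie next to each other, at one end of a run of 10 neighbouring MMP genes in the RefSeq annotation of the mouse assembly GRCm38.p6. In that run Mmp13, Mmp12 and Mmp8 were tested and 7 genes were dim, with signals from 4.17 to 6.42. The dim genes were Mmp1a, Mmp1b, Mmp3, Mmp7, Mmp10, Mmp20 and Mmp27. Within the run, the log2 differences between groups were 0.45 for Mmp8, -0.03 for Mmp12 and -0.11 for Mmp13.

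Mmp13, collagenase-3, cuts fibrillar collagen. Its probe set 10583044 had 11.59, 11.89 and 11.64 in UV-donor cells, against 11.74, 11.78 and 11.91 in naive-donor cells. The groups overlapped, with UV-donor replicate 2 above both lower naive-donor arrays. The difference was within the replicate spread, at -0.11 (95% interval -0.30 to 0.09, limma adjusted p = 0.585). Left-out single arrays gave -0.20 to -0.05.

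Mmp12, the macrophage elastase, was the steadiest of the 10 genes. Its probe set 10583056 had 13.98, 13.96 and 13.95 in UV-donor cells, against 13.96, 14.00 and 14.01 in naive-donor cells. Its range over all 6 arrays was 0.06, and the difference was -0.03 (95% interval -0.13 to 0.07, limma adjusted p = 0.816). The highest value of the whole table was 14.6, so this probe set read near the top of the scale. Of 11 macrophage markers, all tested, 7 were higher and 4 lower in value, and their summed linear signal ran from 29510 to 29860 on UV-donor arrays and from 29130 to 29890 on naive-donor arrays. The complement gene C1qb was the 1 of them called by limma (0.63, adjusted p = 0.0199). An unadjusted p under 0.05 was given for 4 above and 1 below, beside 9.6% and 5.49% of all tested genes. The 1 below was the secreted macrophage protein Cd5l, with the largest difference of the list and no overlap (-0.996, limma adjusted p = 0.0627). Groups did not overlap in 4 markers with UV-donor above and 2 below, beside 12.4% and 9.37% of all tested genes. Those above were C1qb, the surface marker Adgre1 (0.51, limma adjusted p = 0.0627) and the complement genes C1qc (0.46, limma adjusted p = 0.0724) and C1qa (0.17). Those below were Cd5l and the surface receptor Mrc1 (-0.10). The list median was 0.14, and the lysosomal protein Cd68 differed by -0.01.

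The promoters are shown because Mmp13 and the second of 2 annotated starts of Mmp12 hold binding letters known from inducible MMP genes. The first start of Mmp12 holds none of them. Neither does Mmp25, the 1 gene of the 3 with separate groups that has a sequence here. Sequences are from RefSeq (GRCm38.p6) and run from 250 bases before to 50 bases after an annotated start. Entries were present for 7 of the 10 genes, with 2 starts for Mmp12, and none was at hand for Mmp2, Mmp9 and Mmp19. Capitals mark the AP-1 motif TGANTCA, in which N is any base, and the TATA box TATAAA, both searched on both strands; the 2 motifs do not overlap in these windows.
Mmp13, chr9:7272264-7272563, plus strand: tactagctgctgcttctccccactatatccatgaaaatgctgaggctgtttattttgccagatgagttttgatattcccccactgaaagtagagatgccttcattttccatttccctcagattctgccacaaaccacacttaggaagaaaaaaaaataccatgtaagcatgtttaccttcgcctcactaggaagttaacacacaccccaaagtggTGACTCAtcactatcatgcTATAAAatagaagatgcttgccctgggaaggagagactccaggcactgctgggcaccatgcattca
Mmp12, second annotated start, chr9:7347124-7347423, plus strand: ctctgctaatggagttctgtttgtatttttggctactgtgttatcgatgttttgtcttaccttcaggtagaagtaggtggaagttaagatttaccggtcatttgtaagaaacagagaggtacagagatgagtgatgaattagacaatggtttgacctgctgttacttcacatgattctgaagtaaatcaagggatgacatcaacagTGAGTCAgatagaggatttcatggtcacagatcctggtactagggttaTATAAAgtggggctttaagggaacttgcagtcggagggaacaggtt
Mmp25, chr17:23645220-23645519, minus strand: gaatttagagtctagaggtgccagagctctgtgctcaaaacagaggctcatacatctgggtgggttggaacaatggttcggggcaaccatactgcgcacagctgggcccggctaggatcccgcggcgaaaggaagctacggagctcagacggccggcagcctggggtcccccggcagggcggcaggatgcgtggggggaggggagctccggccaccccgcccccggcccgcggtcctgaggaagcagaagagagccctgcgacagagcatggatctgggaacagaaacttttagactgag

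Of the 8 windows of these genes, those of Mmp13 and the second start of Mmp12 held both motifs, and the other 6 held neither. Counted from the annotated start, TATAAA began at -16 in Mmp13 and at 4, after the start, in Mmp12. Over all 32851 windows of the same length, 7.81% held the AP-1 motif, 13.6% the TATA box and 1.54% both. A match describes letters and shows no binding.

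AP-1 and the other factors known to act on MMP promoters were tested as a list of 18 genes, 16 of them measured and tested. Limma called 0 of them over all genes and gave an unadjusted p under 0.05 for 0 higher and 1 lower, with a list median of -0.003. The AP-1 subunits Fos and Jun differed by 0.05 (95% interval -0.13 to 0.23) and -0.04 (-0.14 to 0.06), and the myeloid factor Spi1 by 0.0029 (-0.11 to 0.12). The immediate early factor Egr1 (-0.22, limma adjusted p = 0.319) and the stress-induced factor Atf3 (-0.09, limma adjusted p = 0.397) had the smallest p of the list.

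Mmp19 had 12.695, 12.997 and 12.865 in UV-donor cells, against 12.940, 12.897 and 13.004 in naive-donor cells (probe set 10367400). UV-donor replicate 1 was the lowest array and UV-donor replicate 2 nearly the highest, so the groups overlapped. The difference was -0.09 (95% interval -0.27 to 0.08, limma adjusted p = 0.596), and without UV-donor replicate 1 it was -0.02.

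Mmp14, or MT1-MMP, is the membrane protease that activates the Mmp2 zymogen and cuts collagen at the cell surface. Its probe set 10415052 had 9.22, 9.57 and 9.43 in UV-donor cells, against 9.42, 9.33 and 9.64 in naive-donor cells. Both the lowest array, UV-donor replicate 1, and the highest, naive-donor replicate 3, set the direction of the difference, which was -0.06 (95% interval -0.30 to 0.19, limma adjusted p = 0.842). The sign turned without either of them, to 0.04 without UV-donor replicate 1 and 0.03 without naive-donor replicate 3.

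The inhibitors had overlapping groups. Timp1, the inducible inhibitor that also binds the Mmp9 zymogen, had 11.40, 11.64 and 11.70 in UV-donor cells, against 11.69, 11.51 and 11.77 in naive-donor cells (probe set 10598976). UV-donor replicate 1 was the lowest of the 6 arrays. The difference was -0.08 (95% interval -0.29 to 0.14, limma adjusted p = 0.731), and it was 0.01 without UV-donor replicate 1.

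Timp2, which both inhibits Mmp2 and helps Mmp14 to activate it, had 10.04, 9.90 and 9.98 in UV-donor cells, against 9.81, 9.95 and 10.04 in naive-donor cells (probe set 10393559). Its difference was 0.04 (95% interval -0.12 to 0.20, limma adjusted p = 0.824), and -0.02 without naive-donor replicate 1. Timp3, the matrix-bound inhibitor that also blocks the sheddase Adam17, had 7.93, 7.54 and 7.73 in UV-donor cells, against 7.83, 7.59 and 7.54 in naive-donor cells (probe set 10365482). Replicate 1 was the highest array in both groups. The difference was 0.08 (95% interval -0.17 to 0.33, limma adjusted p = 0.775), and -0.02 without UV-donor replicate 1.

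Protease and inhibitor were also compared within each array for the pairs whose zymogens and inhibitors bind. The log2 signal of Mmp9 minus that of Timp1 was -0.56, -0.82 and -0.73 on UV-donor arrays, against -1.06, -1.01 and -1.28 on naive-donor arrays. The groups did not overlap, and the mean was -0.70 ± 0.13 in UV-donor cells and -1.12 ± 0.15 in naive-donor cells (SD, n = 3 each). The difference was 0.41 (exact permutation test, two-sided, p = 0.1, the smallest that 3 against 3 arrays can give). Mmp9 alone differed by 0.33 and Timp1 by -0.08, so most of this value repeats the Mmp9 difference given above. For Mmp2 minus Timp2 the values were -1.69, -1.39 and -1.41 on UV-donor arrays, against -1.64, -1.71 and -1.80 on naive-donor arrays. UV-donor replicate 1 lay among the naive-donor arrays, and the difference was 0.22 (exact permutation test, two-sided, p = 0.2). These values set the change of one signal against that of another and do not measure the amount of either protein.

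Several of the genes shared their lowest and highest arrays. These lie in different groups, so the group difference enters this pattern. Mmp13, Mmp14, Mmp19 and Timp1 were all lowest on UV-donor replicate 1 and all highest on naive-donor replicate 3. Of all tested genes 4.97% had this pattern. Mmp25 had the opposite extremes, highest on UV-donor replicate 1 and lowest on naive-donor replicate 3, as had 8.99% of all tested genes. Mmp9 was also lowest on naive-donor replicate 3, while Mmp2 was lowest on naive-donor replicate 1, and both were highest on UV-donor replicate 3. Naive-donor replicate 2 was the extreme array of none of the 10 genes.

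**Figure D4:**
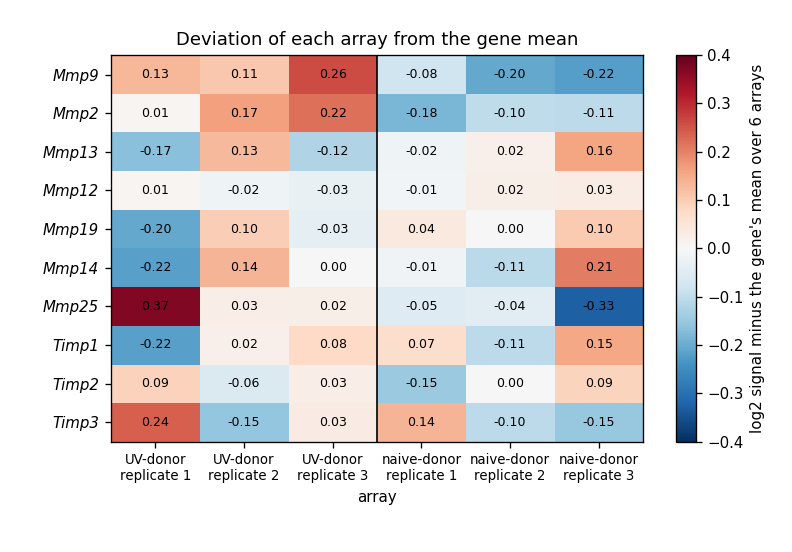
Deviation of each array's log2 signal from the gene's mean over the 6 arrays (colour and number), for the 10 genes (rows) and 6 arrays (columns, UV-donor left of the line, naive-donor right). Mmp13, Mmp14, Mmp19 and Timp1 share their lowest array, UV-donor replicate 1, and their highest, naive-donor replicate 3, while Mmp25 has the opposite extremes.

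The tested genes whose profile over the 6 arrays was most like that of Mmp9 were Abhd8 (Pearson r = 0.990), Tbc1d10a (0.988) and Rpp25l (0.987). Those most like Mmp2 were Map11 (0.9945), Gch1 (0.994) and Crispld2 (0.990). These are the highest of many correlations over 6 arrays that share 2 groups, and they are given as a description.

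**Figure D5:**
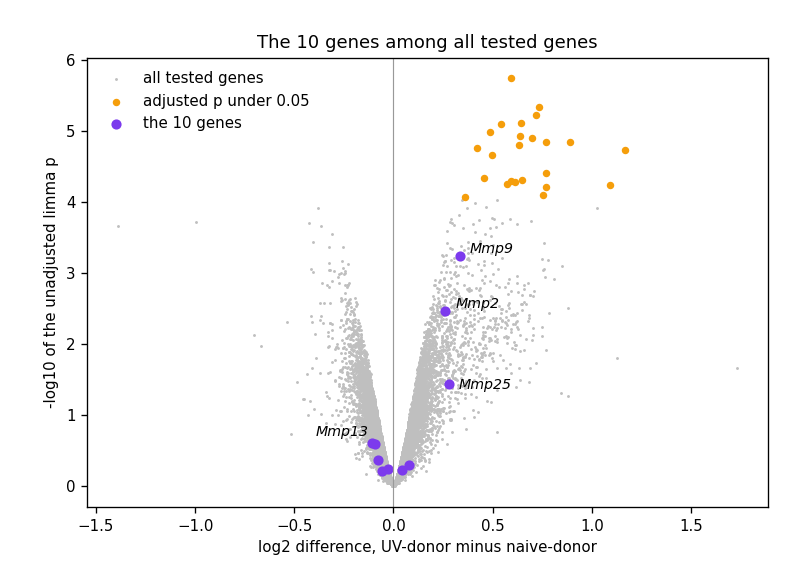
Log2 difference, UV-donor minus naive-donor (x axis), against -log10 of the unadjusted limma p (y axis) for the 13956 tested genes (grey), with the 24 genes called at an adjusted p under 0.05 in orange and the 10 MMP and TIMP genes in purple. Mmp9 (0.33), Mmp2 (0.26) and Mmp25 (0.28) lie right of 0 and below the called genes.

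Of 16 other MMP genes, 15 were measured, 9 were dim and 6 were tested. Of these 6, 2 were higher and 4 lower in value, and 0 were called by limma. At an unadjusted p under 0.05, 2 were higher, beside 9.6% of all tested genes. They were Mmp8, given above, and Mmp23 (0.24, limma adjusted p = 0.274), a membrane-bound MMP. Mmp15 was not analysed here.

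Of 8 other metalloproteinase inhibitors, 4 were tested and 4 were dim, Timp4 among them. Limma called 0 of them and gave 0 at an unadjusted p under 0.05. Reck, a membrane-anchored inhibitor of several MMPs, differed by 0.02 (95% interval -0.08 to 0.13). Tfpi2, a secreted protease inhibitor (-0.11), and the proteoglycan Spock2 (-0.12) had the smallest p of the list. Its median was -0.09, with 1 higher and 3 lower in value.

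Activators of MMP zymogens and the plasminogen system had 11 tested genes, 5 higher and 6 lower in value, of which limma called 0 and gave 0 at an unadjusted p under 0.05. The urokinase protease Plau differed by -0.06 (95% interval -0.26 to 0.14) and its receptor Plaur by 0.03 (-0.07 to 0.13). The proprotein convertases Pcsk5 (-0.10) and Pcsk7 (0.10) had the smallest p of the list.

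Of 14 cell-surface partners that dock or clear MMPs and TIMPs, all tested, limma called 0, with a median of 0.01. At an unadjusted p under 0.05 it gave 1 higher and 2 lower, beside 9.6% and 5.49% of all tested genes. Lrp1, the endocytic receptor that removes MMPs and their complexes with TIMPs, had 11.82, 12.13 and 12.00 in UV-donor cells, against 12.17, 12.21 and 12.35 in naive-donor cells. The groups did not overlap, and the difference was -0.26 (SE 0.08, limma adjusted p = 0.214). The integrin subunit Itgb3, also without overlap, differed by 0.23 (limma adjusted p = 0.259). Cd44, the hyaluronan receptor that docks Mmp9 at the cell surface, differed by 0.03 (95% interval -0.07 to 0.14).

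The ADAM and ADAMTS proteases, relatives of the MMPs that shed membrane proteins or cut proteoglycans, were tested for 15 of 19 genes, a list that also holds the Adam17 partner Rhbdf2. Limma called 0, and 10 of 15 were lower in value. An unadjusted p under 0.05 was given for 2 higher and 1 lower, beside 9.6% and 5.49% of all tested genes. The sheddase Adam10 differed by -0.18 (limma adjusted p = 0.258), and Adam23, a family member without protease activity, by 0.35 (limma adjusted p = 0.167). Adam8, a leukocyte ADAM, differed by -0.06 and Adam17, the TNF sheddase, by 0.02 (95% interval -0.14 to 0.17).

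Matrix genes, the substrates of these enzymes, had lower values in UV-donor cells for 17 of 19 tested genes. Their median was -0.07, against 0.002 over all tested genes, and their summed linear signal ran from 33760 to 36600 on UV-donor arrays and from 37170 to 37870 on naive-donor arrays. Fibronectin, Fn1, and the adhesive glycoprotein thrombospondin-1, Thbs1, held 86.9% of that sum, and the other 18 measured genes summed to 4582 to 4678 on UV-donor arrays and 4917 to 5051 on naive-donor arrays. Limma called 0 of them. An unadjusted p under 0.05 was given for 0 higher and 2 lower, beside 9.6% and 5.49% of all tested genes. Groups did not overlap in 4, all with UV-donor below, beside 12.4% of all tested genes above and 9.37% below. Several signals lay near the array medians of 7.16 to 7.23, such as Lama5 (means 7.16 in UV-donor and 7.21 in naive-donor cells). Interquartile ranges were 3.71 to 3.75 on UV-donor arrays and 3.61 to 3.68 on naive-donor arrays, and their part here was not tested. Col3a1, a fibrillar collagen, had 7.84, 7.80 and 7.79 in UV-donor cells, against 8.03, 7.99 and 7.97 in naive-donor cells. Its difference was -0.19 (limma adjusted p = 0.149), and that of elastin, Eln, was -0.16 (limma adjusted p = 0.23).

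Markers of 4 other cell types were measured as well. The counts below at an unadjusted p under 0.05 stand beside 9.6% of all tested genes higher and 5.49% lower (limma). Of the 10 dendritic cell markers tested 9 were higher in value, and the lectin Cd209a was the 1 called by limma (0.59, adjusted p = 0.0199). Their list, Flt3 included, summed to a linear signal of 51370 to 52010 on UV-donor arrays and 47430 to 50700 on naive-donor arrays. Of 6 monocyte markers tested, 3 were higher and 3 lower in value, and the progenitor gene Ms4a3 was the 1 called by limma (1.09, adjusted p = 0.0387). The monocyte list had a median of 0.24, with an unadjusted p under 0.05 for 3 higher and 0 lower; beside Ms4a3 these were the transglutaminase subunit F13a1 (0.50, limma adjusted p = 0.222) and the membrane protein Ms4a6c (0.84, limma adjusted p = 0.325). The list summed to 24350 to 24840 on UV-donor arrays and 24910 to 25910 on naive-donor arrays, of which Fn1 and the chemokine receptor Ccr2 held 96.1%. Without those 2 genes the sums were 1059 to 1264 on UV-donor arrays and 737.6 to 842.7 on naive-donor arrays. The 3 monocyte markers lower in value were Ccr2 (-0.02), the chemokine receptor Cx3cr1 (-0.03) and the matrix protein fibronectin, Fn1. Fn1, which monocytes and macrophages also make, differed by -0.09 (limma adjusted p = 0.369). Of 7 osteoclast markers tested, 2 were higher and 5 lower in value, and limma called 0 (2 above and 1 below had an unadjusted p under 0.05). All 9 osteoclast markers, dim ones included, summed to 26400 to 27380 on UV-donor arrays and 28370 to 29120 on naive-donor arrays. Without Atp6v0d2 and the fusion protein Ocstamp, which held 62.2% of it, the sums overlapped, and the list median was -0.11. The proton pump subunit Atp6v0d2 differed by -0.14 (limma adjusted p = 0.272) and the transcription factor Nfatc1 by 0.19 (limma adjusted p = 0.158). Of 8 mast cell and basophil markers 6 were dim, and the 2 tested had limma unadjusted p-values above 0.05, with the stem cell factor receptor Kit at 0.19 (limma adjusted p = 0.363).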

How the data were processed

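The deposited table holds log2 signals, 1 per probe set for each of 6 arrays. RMA, oligo and limma are named in the submitters' processing notes without versions, and the log2 scale was read from the deposited values. These lie between 2.52 and 14.6, and array medians between 7.16 and 7.23. The interquartile range was 3.71 to 3.75 on UV-donor arrays and 3.61 to 3.68 on naive-donor arrays. Values were used as deposited. Arrays were assigned by their labels. The number of arrays limits the precision, and no batch is named in the sources used here.

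Of 35556 probe sets, 21789 had 1 gene symbol, 1621 several and 12146 were not listed. Symbols came from the platform annotation, and 21698 were matched by Entrez identifier to RefSeq. The probe set of highest mean stood for each of 19938 genes. Genes below the 30th percentile of means (6.58) were left out, leaving 13956. The test was limma's (version 3.58.1 under R 4.3.3, lmFit and eBayes, no block), adjusted by Benjamini-Hochberg and first tested on simulated data. Figures were drawn with matplotlib 3.10.9.

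The 10 genes, the 7 pathway and 7 marker lists and the tests were chosen with earlier results of these data known. Genes named beside the 10 were the 2 of smallest p of each pathway list, a fixed set, and from marker lists the gene of highest signal and that of smallest p; other names were added after their values were seen. Alternatives covered scaling, filter, model, probe sets and left-out arrays.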

Additional observations from a re-analysis of the deposited data

How the results depend on the processing

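None of the 10 genes was called under any of the 17 alternatives, save that Timp3 was not tested with the 50th percentile filter (16 alternatives). The limma adjusted p ran over 0.0606 to 0.433 for Mmp9, 0.0969 to 0.446 for Mmp2 and 0.227 to 0.53 for Mmp25, and these 3 stayed above 0 in every alternative. With an unadjusted p under 0.05 as the threshold 3 of the 10 passed. With centred array medians, which moved the median of all genes to 0.036, Mmp12 was at 0.0084. Differences turned sign for Mmp14, Timp1, Timp2 and Timp3 when 1 array was left out, with ranges of -0.14 to 0.04, -0.15 to 0.01, -0.02 to 0.10 and -0.02 to 0.17. Without UV-donor replicate 1 the log2 differences were 0.038 for Mmp14, 0.011 for Timp1 and -0.022 for Timp3. Without naive-donor replicate 1 Timp2 was at -0.023, and without naive-donor replicate 3 Mmp14 was at 0.033.

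Calls over all tested genes numbered 24, and 43 with centred medians, 43 with array weights, 45 with an intensity trend and robust prior, 0 with all probe sets (limma; unadjusted p under 0.05 in 1801 higher and 1708 lower) and 1 to 32 with single arrays left out. They were 1 without naive-donor replicate 1, UV-donor replicate 2 or UV-donor replicate 3 and 3 without naive-donor replicate 3. Same-numbered arrays showed no strong shared deviation (correlations of deviations -0.135, -0.224 and 0.148). This cannot show whether the preparations were paired, and the labels do not say. With the numbers as a replicate block, limma called 0 of all genes (unadjusted p under 0.05 in 1286 higher and 666 lower) and 0 of the 10, of which 3 had an unadjusted p under 0.05; Mmp9 then had a limma adjusted p of 0.209. Single arrays left out gave 0.33 to 0.47 for Mmp9 minus Timp1 and 0.16 to 0.32 for Mmp2 minus Timp2.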
